A study of Homo sapiens with 36 samples.

Results

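The genes described here encode 10 leukocyte adhesion molecules and integrin subunits: VCAM1, ICAM1, ICAM2, ICAM3, ITGAL, ITGAM, ITGAX, ITGB2, ITGA4 and ITGB7. They were taken by matching the Entrez identifiers of the deposited gene table to these symbols, and all 10 were found among its 21599 genes. All 10 also passed the filter on low values, a log2 value of at least 3.32 in at least 3 libraries, which 21232 genes passed; VCAM1 passed it through its stimulated libraries. The study measured total RNA by sequencing in 36 libraries of THP-1 cells, a human monocytic leukaemia line, that were either IRG1 KO or WT. IRG1, listed under its current symbol ACOD1, encodes an enzyme that turns cis-aconitate into itaconate. All cells had first been turned into macrophage-like cells with 100 nM PMA (phorbol 12-myristate 13-acetate) for 72 h. KO cells and WT cells then received either 200 ng/mL LPS (bacterial lipopolysaccharide) together with 200 ng/mL IFN-γ, called stimulated here, or vehicle, and were collected after 6, 12 or 24 h. The 12 groups of genotype, treatment and time held 3 libraries each. The labels do not say whether the KO line was 1 clone, or whether the 3 libraries of a group came from separate cultures, so p-values measure the spread between these libraries, which may be technical.

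Integrins are paired receptors of an alpha and a beta subunit that hold leukocytes to other cells and to matrix, and they switch to a high-affinity shape when signals inside the cell bring talin and kindlin to the beta tail. The beta 2 subunit ITGB2 (CD18) pairs with ITGAL (CD11a) to form LFA-1, with ITGAM (CD11b) to form Mac-1, the receptor for complement iC3b, and with ITGAX (CD11c) to form complement receptor 4. ICAM1, ICAM2 and ICAM3 are immunoglobulin-family ligands of LFA-1, and ICAM1 is bound by Mac-1 too. VCAM1 is the ligand of integrin alpha 4 beta 1, and ITGA4 also pairs with ITGB7 to form the receptor for the gut address molecule MAdCAM-1. VCAM1 and ICAM1 are known as NF-κB-driven genes of inflamed endothelium, while CD11b and CD11c are widely used surface markers of myeloid cells.

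The deposited values are on a log2 scale and carry no read counts, so the depth of each library is unknown and no counting interval can be given. Each library had a median between 5.47 and 5.48 over all genes, and no libraries were identical. Log2 values of different genes are not compared below, because their scaling to gene length is not given in the sources used here. ACOD1 averaged 8.48, 8.90 and 8.89 in stimulated KO cells at 6, 12 and 24 h, against 11.79, 11.59 and 10.37 in stimulated WT cells. Its difference at 6, 12 and 24 h was -3.31 (adjusted p = 3.74e-05), -2.69 (adjusted p = 8.70e-04) and -1.48 (adjusted p = 0.0597, limma), so the lower ACOD1 of the KO labels did not pass at 24 h. Transcript from an edited gene can persist, so this value checks the labels only in part. After each gene's mean over all libraries was subtracted, the correlation of a library with the others of its group had a median of 0.624 and was lowest, at 0.396, in KO stimulated 6 h replicate 2, followed by WT stimulated 24 h replicate 3. The closest single library had the other genotype for 4 libraries: KO stimulated replicate 2 at 6, 12 and 24 h, and WT stimulated 24 h replicate 2. Genotype calls are also given without these 2 and without these 4 libraries, choices made after the data were seen. The 4 were picked by their likeness to the other genotype, so leaving them out tends to widen genotype differences in stimulated cells. The 2 were picked for standing far from their group, so leaving them out tends to narrow the spread. Calls kept or gained without them are therefore descriptions and lend the genotype results no support. All 16 macrophage and monocyte markers had a median at or above the low-value limit, as did 1 of 4 measured T cell, 2 of 5 B cell, 3 of 6 NK cell and 1 of 8 endothelial and stromal markers; their levels stand beside the genotype results. In bulk RNA, fewer cells with a transcript and less transcript per cell cannot be told apart.

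The first comparison asked how each genotype answered LPS with IFN-γ. In stimulated KO cells, VCAM1, ICAM1 and ICAM2 rose at every time and ITGAM fell at every time, against vehicle KO cells. In stimulated WT cells, VCAM1 and ICAM1 rose and ITGAM fell at every time, against vehicle WT cells. A gene was called where its limma adjusted p, by Benjamini-Hochberg over all genes tested, was below 0.05. Of the 10 genes, 3 were called higher and 3 lower in KO cells at 6 h, beside 16.2% of all tested genes higher and 22.5% lower. At 12 h, 3 were called higher and 2 lower in KO cells, beside 15.5% of all tested genes higher and 19.5% lower. At 24 h, 3 were called higher and 3 lower in KO cells, beside 17.3% of all tested genes higher and 21.6% lower. WT cells had 2 called higher and 2 lower at 6 h, beside 15.1% of all tested genes higher and 20.9% lower. They had 2 higher and 2 lower at 12 h, beside 16.8% of all tested genes higher and 21.7% lower, and 3 higher and 4 lower at 24 h, beside 20.2% of all tested genes higher and 26.1% lower. Without WT vehicle 24 h replicate 2, the last count was 4 in all. The median log2 change of the 10 genes was -0.24, -0.63 and -0.56 in KO cells and -0.35, -0.59 and -0.77 in WT cells at the 3 times, beside -0.20, -0.12 and -0.08, and -0.17, -0.18 and -0.11, over all genes tested. Tested against a minimum log2 change of 1, the rises of VCAM1 and ICAM1 kept their calls in both genotypes at all 3 times, as did ITGAM in KO cells at 12 and 24 h and in WT cells at 24 h, ICAM3 in KO cells at 24 h and ITGA4 in WT cells at 24 h, and no other stimulation call of the 10 genes passed.

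**Figure D1:**
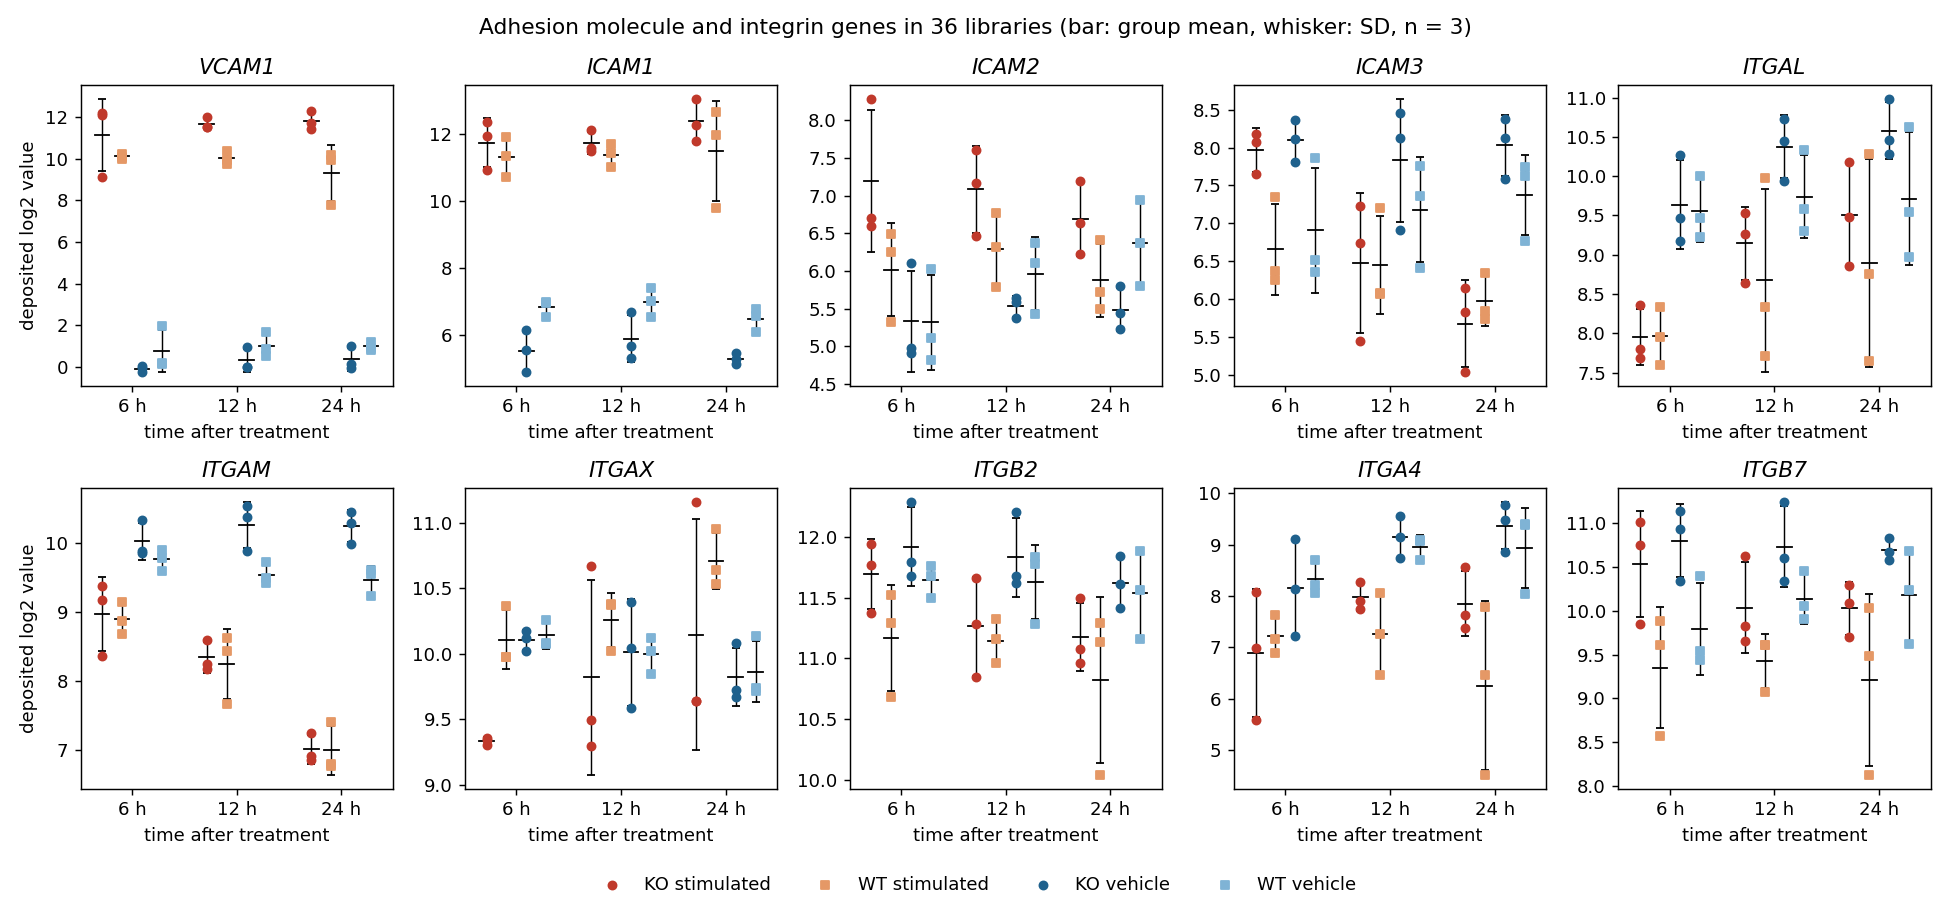
Deposited log2 value of each gene (vertical axis, own scale per panel) in each of 36 libraries by time (horizontal axis, hours), coloured by genotype and treatment; points are libraries, bars are group means and whiskers are SD (n = 3). Stimulated VCAM1 and ICAM1 libraries all lie above every vehicle library, and stimulated ITGAM libraries lie below those of vehicle at each time.

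VCAM1, the immunoglobulin-family ligand of alpha 4 integrins, stood near the bottom of the scale in vehicle cells and high in stimulated ones. VCAM1 in stimulated KO cells had log2 values of 12.20, 9.12 and 12.09 at 6 h, 12.01, 11.50 and 11.54 at 12 h, then 12.27, 11.71 and 11.42 at 24 h. VCAM1 in vehicle KO cells had 0.03, -0.07 and -0.24 at 6 h, -0.002, 0.96 and -0.02 at 12 h, then 0.12, 0.99 and -0.05 at 24 h. No stimulated KO library overlapped a vehicle one, and replicate 2 at 6 h was the lowest of the stimulated KO libraries. VCAM1 in stimulated WT cells had 9.99, 10.23 and 10.10 at 6 h, 9.73, 10.35 and 9.95 at 12 h, then 9.94, 10.20 and 7.75 at 24 h. VCAM1 in vehicle WT cells had 0.20, 1.94 and 0.16 at 6 h, 0.86, 1.68 and 0.52 at 12 h, then 0.91, 1.21 and 0.81 at 24 h. Replicate 3 at 24 h was the lowest of the stimulated WT libraries, and it too lay far above all vehicle libraries. VCAM1 rose by 11.23 ± 0.60 at 6 h (adjusted p = 9.84e-15), 11.37 ± 0.60 at 12 h (adjusted p = 7.66e-15) and 11.45 ± 0.60 at 24 h (adjusted p = 5.34e-15) in KO cells (log2 change ± SE, limma, n = 3 per group). It rose by 9.34 ± 0.60 at 6 h (adjusted p = 7.91e-13), 8.99 ± 0.60 at 12 h (adjusted p = 1.77e-12) and 8.32 ± 0.60 at 24 h (adjusted p = 9.22e-12) in WT cells. No linear fold is given, because all vehicle values were below the low-value limit and the offset the authors added before taking logarithms is not given.

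The promoters of VCAM1, ICAM1 and ITGAM are shown because these genes rose or fell in both genotypes at all 3 times. Each is a 300-base window from 250 bases before to 50 bases after the gene start, 5′ to 3′ on the plus strand that carries all 3 genes, from RefSeq on GRCh38.p14: VCAM1 at chr1:100719492-100719791, ICAM1 at chr19:10270870-10271169 and ITGAM at chr16:31259725-31260024. Capitals mark matches, on either strand, to the letters GGGNTTNCC or GGNNNTTCC (NF-κB), TTCNNNGAA (the interferon-γ-activated site, GAS), GAAANNGAA (the interferon-stimulated response element, ISRE), GAGGAA (PU.1) and TGANTCA (AP-1).
VCAM1: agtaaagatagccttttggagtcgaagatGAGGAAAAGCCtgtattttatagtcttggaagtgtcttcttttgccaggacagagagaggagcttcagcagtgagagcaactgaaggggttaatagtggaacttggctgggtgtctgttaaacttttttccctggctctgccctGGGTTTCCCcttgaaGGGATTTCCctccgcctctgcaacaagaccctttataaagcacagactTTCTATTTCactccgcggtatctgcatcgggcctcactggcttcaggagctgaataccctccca
ICAM1: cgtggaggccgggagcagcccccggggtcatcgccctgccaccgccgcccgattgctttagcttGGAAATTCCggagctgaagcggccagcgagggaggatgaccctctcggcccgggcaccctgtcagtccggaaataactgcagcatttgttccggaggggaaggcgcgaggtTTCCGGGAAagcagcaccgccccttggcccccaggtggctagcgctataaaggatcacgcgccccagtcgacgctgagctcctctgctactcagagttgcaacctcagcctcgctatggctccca
ITGAM: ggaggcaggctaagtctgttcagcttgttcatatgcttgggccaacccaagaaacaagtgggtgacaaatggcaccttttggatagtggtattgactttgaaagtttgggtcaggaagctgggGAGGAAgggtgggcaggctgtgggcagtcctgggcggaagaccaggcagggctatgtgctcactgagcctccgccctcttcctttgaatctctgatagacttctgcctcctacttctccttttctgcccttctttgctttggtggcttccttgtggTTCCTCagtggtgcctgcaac

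The VCAM1 window held GGGTTTCCC beginning 77 bases and GGGATTTCC beginning 62 bases before the start, the pair of NF-κB elements known from endothelial studies, and GGGNTTNCC was chosen after these matches had been seen, in place of looser letters with 5 free bases between GGG and CC, which 58.7% of windows held, so its share supports nothing. The second of the pair also matched GGNNNTTCC. It also held a PU.1 match overlapping a match to GGNNNTTCC on the opposite strand near its far end, and an ISRE match on the opposite strand beginning 14 bases before the start. The ICAM1 window held GGAAATTCC beginning 186 bases before the start, which matched on both strands, and TTCCGGGAA beginning 75 bases before it. The ITGAM window held PU.1 letters beginning 127 bases before the start and, on the opposite strand, at base 30 after it. Among all 35116 promoter windows of the table, 5.29% held GGGNTTNCC, 20.1% GGNNNTTCC, 7.66% TTCNNNGAA, 8.11% GAAANNGAA, 27.9% GAGGAA and 7.71% TGANTCA. A match describes letters and says nothing of whether a factor was bound in these cells. ICAM3, ITGA4 and ITGB7 also had windows in the table, so 6 of the 10 genes matched; ICAM2, ITGAL, ITGAX and ITGB2 did not.

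**Figure D2:**
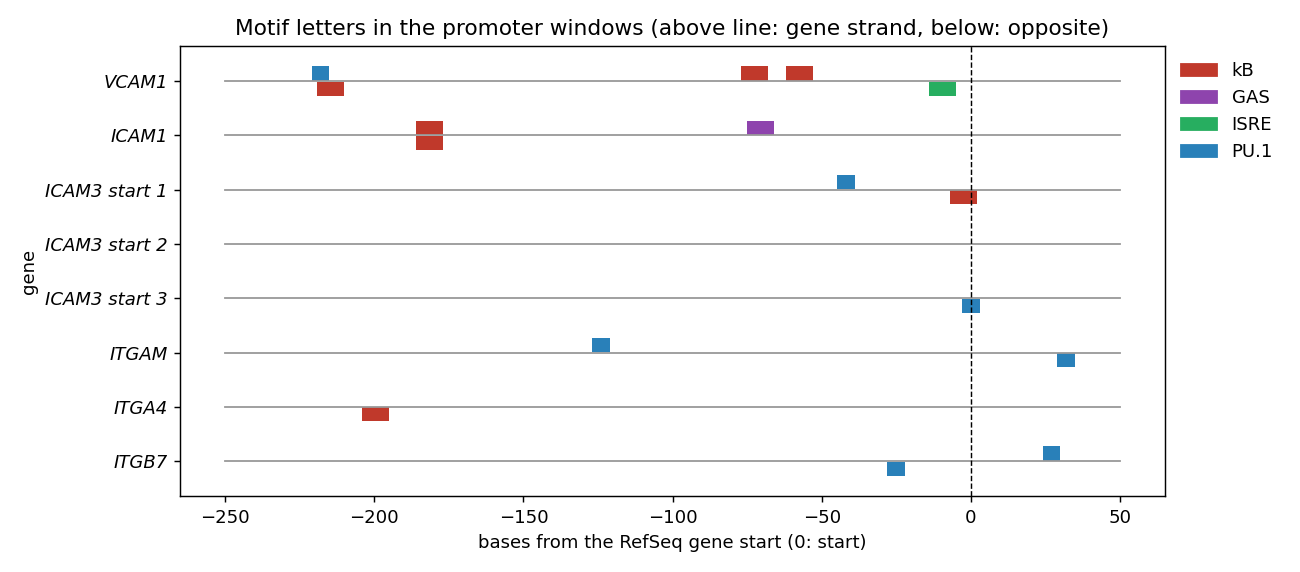
Position of each motif match (coloured blocks) in the promoter windows of 6 genes, in bases from the RefSeq gene start (horizontal axis), with matches on the gene's strand above the line and on the opposite strand below it; ICAM3 has 3 annotated starts. VCAM1 carries a pair of NF-κB blocks 77 and 62 bases before its start, and ICAM1 carries the GAS match, 75 bases before its start.

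ICAM1, the main inducible ligand of LFA-1 and Mac-1, rose in every comparison with vehicle. ICAM1 in stimulated KO cells had log2 values of 12.35, 10.92 and 11.94 at 6 h, 11.58, 12.11 and 11.49 at 12 h, then 12.27, 13.04 and 11.78 at 24 h. ICAM1 in vehicle KO cells had 5.55, 6.15 and 4.91 at 6 h, 5.69, 6.69 and 5.33 at 12 h, then 5.16, 5.48 and 5.28 at 24 h. The lowest stimulated KO library was well above the highest vehicle KO library. ICAM1 in stimulated WT cells had 11.91, 11.34 and 10.70 at 6 h, 11.41, 11.70 and 11.02 at 12 h, then 11.97, 12.65 and 9.80 at 24 h. ICAM1 in vehicle WT cells had 6.99, 6.97 and 6.55 at 6 h, 7.03, 7.41 and 6.56 at 12 h, then 6.80, 6.59 and 6.10 at 24 h. The stimulated and vehicle WT libraries did not overlap either, and replicate 3 at 24 h was again the lowest stimulated one. ICAM1 rose by 6.20 ± 0.50 at 6 h (adjusted p = 5.70e-11), 5.82 ± 0.50 at 12 h (adjusted p = 2.22e-10) and 7.05 ± 0.50 at 24 h (adjusted p = 3.38e-12) in KO cells (limma), or 73.5-, 56.6- and 133-fold. It rose by 4.48 ± 0.50 at 6 h (adjusted p = 3.53e-08), 4.38 ± 0.50 at 12 h (adjusted p = 6.03e-08) and 4.98 ± 0.50 at 24 h (adjusted p = 4.90e-09) in WT cells, or 22.4-, 20.8- and 31.5-fold.

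ICAM2, known as a constitutive LFA-1 ligand of endothelium and leukocytes, rose in KO cells. ICAM2 in stimulated KO cells had log2 values of 6.60, 8.29 and 6.71 at 6 h, 7.17, 6.47 and 7.61 at 12 h, then 6.64, 6.23 and 7.20 at 24 h. ICAM2 in vehicle KO cells had 4.97, 6.11 and 4.91 at 6 h, 5.59, 5.38 and 5.64 at 12 h, then 5.23, 5.44 and 5.79 at 24 h. Every stimulated KO library was above every vehicle KO library of its time. ICAM2 in stimulated WT cells had 5.32, 6.25 and 6.49 at 6 h, 5.78, 6.31 and 6.76 at 12 h, then 5.72, 6.41 and 5.49 at 24 h. ICAM2 in vehicle WT cells had 4.82, 5.12 and 6.03 at 6 h, 5.42, 6.10 and 6.37 at 12 h, then 5.80, 6.37 and 6.94 at 24 h. Stimulated and vehicle WT libraries overlapped at each time. ICAM2 rose by 1.87 ± 0.44 at 6 h (adjusted p = 0.00131), 1.55 ± 0.44 at 12 h (adjusted p = 0.00708) and 1.20 ± 0.44 at 24 h (adjusted p = 0.0316) in KO cells (limma), or 3.65-, 2.93- and 2.30-fold. Its change in WT cells was 0.70 ± 0.44 at 6 h (adjusted p = 0.228), 0.32 ± 0.44 at 12 h (adjusted p = 0.601) and -0.50 ± 0.44 at 24 h (adjusted p = 0.376), and none of these passed. ICAM2 lost its KO call at 24 h without any 1 of KO stimulated 24 h replicate 1 and 3 and KO vehicle 24 h replicate 1 and 2, with a log2 change of 0.95 to 1.23 and an adjusted p of 0.0587 to 0.142. ICAM2 lost its KO call at 6 h with only the libraries compared in the fit (1.87, adjusted p = 0.0521).

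ICAM3, an LFA-1 ligand of resting leukocytes that DC-SIGN also binds, fell in KO cells at 12 and 24 h and in WT cells at 24 h. ICAM3 in stimulated KO cells had log2 values of 8.08, 8.18 and 7.64 at 6 h, 7.24, 5.45 and 6.74 at 12 h, then 6.16, 5.04 and 5.83 at 24 h. ICAM3 in vehicle KO cells had 8.12, 7.81 and 8.36 at 6 h, 8.45, 6.91 and 8.13 at 12 h, then 8.13, 7.58 and 8.38 at 24 h. Stimulated and vehicle KO libraries overlapped at 6 and 12 h and were apart at 24 h. ICAM3 in stimulated WT cells had 6.26, 6.37 and 7.34 at 6 h, 6.08, 6.07 and 7.20 at 12 h, then 5.74, 6.35 and 5.84 at 24 h. ICAM3 in vehicle WT cells had 6.36, 6.51 and 7.86 at 6 h, 6.41, 7.37 and 7.76 at 12 h, then 6.77, 7.62 and 7.74 at 24 h. In WT cells, too, the groups were apart at 24 h alone. The log2 change of ICAM3 was -0.12 ± 0.47 at 6 h (adjusted p = 0.862), -1.36 ± 0.47 at 12 h (adjusted p = 0.026) and -2.35 ± 0.47 at 24 h (adjusted p = 2.31e-04) in KO cells (limma), and at 24 h its level was 5.11-fold lower than in vehicle KO cells. In WT cells it was -0.25 ± 0.47 at 6 h (adjusted p = 0.721), -0.73 ± 0.47 at 12 h (adjusted p = 0.231) and -1.40 ± 0.47 at 24 h (adjusted p = 0.0163), 2.65-fold lower at 24 h. ICAM3 lost its KO call at 12 h without any 1 of KO stimulated 12 h replicate 2 and KO vehicle 12 h replicate 1 and 3, with a log2 change of -1.21 to -0.84 and an adjusted p of 0.0939 to 0.22. ICAM3 lost its WT call at 24 h without any 1 of WT stimulated 24 h replicate 1 and WT vehicle 24 h replicate 2 and 3, with a log2 change of -1.28 to -1.22 and an adjusted p of 0.0552 to 0.0666. ICAM3 also lost its KO call at 12 h with only the libraries compared in the fit (-1.36, adjusted p = 0.0794) and with the 4 libraries closest to the other genotype left out (-0.84, adjusted p = 0.2).

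**Figure D3:**
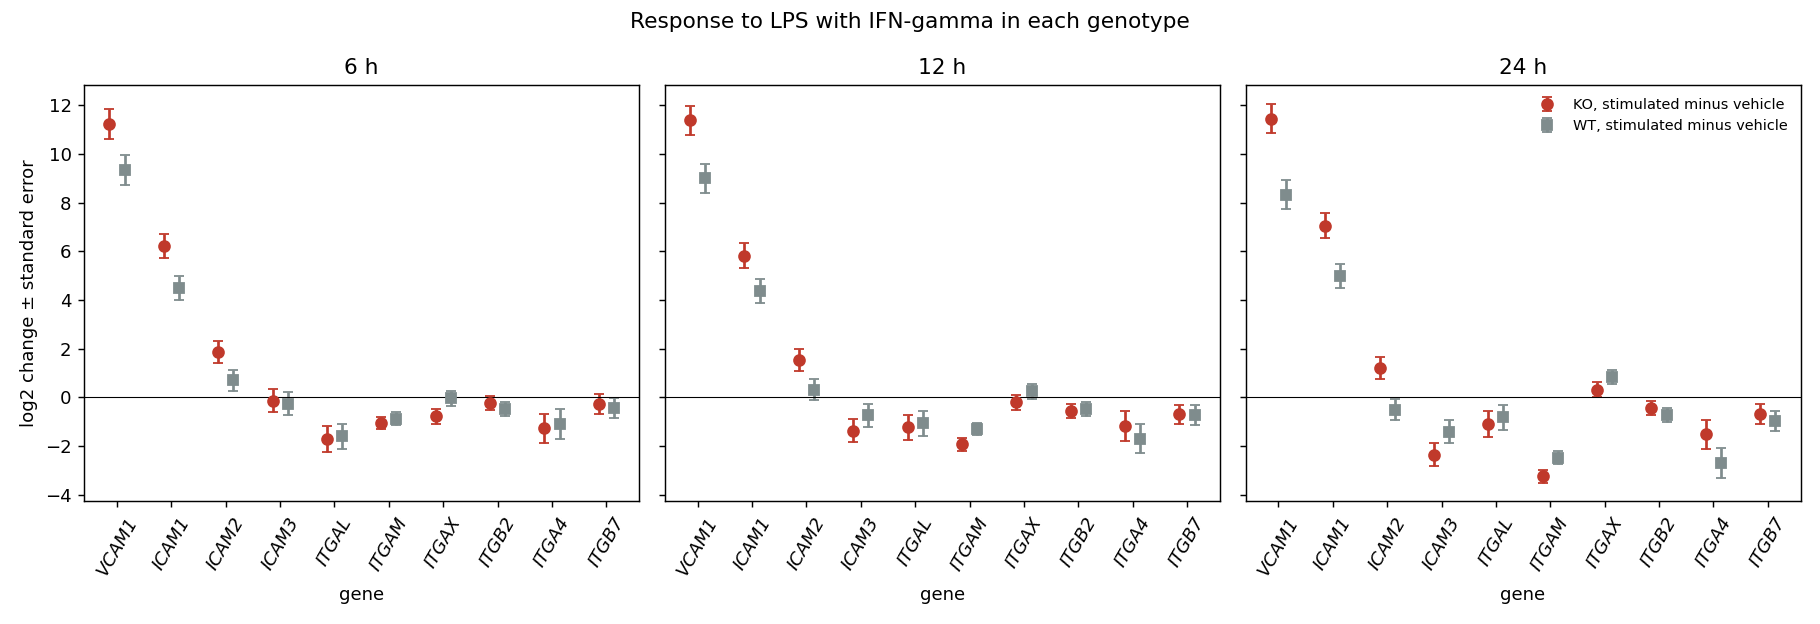
Log2 change of stimulated minus vehicle (vertical axis, points, with standard errors as whiskers) for each gene (horizontal axis) in KO cells (left of each pair) and WT cells (right), at 6, 12 and 24 h. VCAM1 and ICAM1 are high in both genotypes, and their KO points lie above their WT points at each time; ITGAM is below 0 in both.

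ITGAM, the CD11b subunit of Mac-1, fell in both genotypes at every time. ITGAM in stimulated KO cells had log2 values of 9.38, 8.36 and 9.17 at 6 h, 8.60, 8.17 and 8.25 at 12 h, then 7.25, 6.86 and 6.92 at 24 h. ITGAM in vehicle KO cells had 10.33, 9.88 and 9.86 at 6 h, 10.37, 10.54 and 9.89 at 12 h, then 10.29, 10.45 and 9.99 at 24 h. At each time all stimulated KO libraries were below all vehicle KO libraries. ITGAM in stimulated WT cells had 9.15, 8.68 and 8.87 at 6 h, 8.43, 7.67 and 8.62 at 12 h, then 7.41, 6.77 and 6.80 at 24 h. ITGAM in vehicle WT cells had 9.79, 9.60 and 9.91 at 6 h, 9.49, 9.41 and 9.72 at 12 h, then 9.61, 9.55 and 9.23 at 24 h. The WT groups were likewise apart at each time, and the 3 stimulated WT libraries at 24 h were the lowest of all WT libraries. ITGAM had a log2 change of -1.05 ± 0.25 at 6 h (adjusted p = 0.00149), -1.92 ± 0.25 at 12 h (adjusted p = 7.04e-07) and -3.24 ± 0.25 at 24 h (adjusted p = 3.56e-11) in KO cells (limma), or 2.08-, 3.80- and 9.42-fold lower. In WT cells it was -0.86 ± 0.25 at 6 h (adjusted p = 0.0084), -1.30 ± 0.25 at 12 h (adjusted p = 1.85e-04) and -2.47 ± 0.25 at 24 h (adjusted p = 8.13e-09), or 1.82-, 2.46- and 5.54-fold lower. ITGAM lost its KO call at 6 h with only the libraries compared in the fit (-1.05, adjusted p = 0.0534).

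ITGAX, the CD11c subunit, lies next to ITGAM on chromosome 16 with 0 protein-coding genes between them in the RefSeq table; it fell in KO cells at 6 h and rose in WT cells at 24 h. ITGAX in stimulated KO cells had log2 values of 9.34, 9.30 and 9.36 at 6 h, 9.49, 10.67 and 9.29 at 12 h, then 9.64, 11.16 and 9.64 at 24 h. ITGAX in vehicle KO cells had 10.12, 10.17 and 10.02 at 6 h, 10.05, 10.40 and 9.59 at 12 h, then 9.73, 10.08 and 9.67 at 24 h. At 6 h the stimulated KO libraries were all below the vehicle ones, and at 12 and 24 h replicate 2 stood above the other stimulated KO libraries. ITGAX in stimulated WT cells had 10.37, 9.97 and 9.98 at 6 h, 10.38, 10.38 and 10.03 at 12 h, then 10.64, 10.54 and 10.95 at 24 h. ITGAX in vehicle WT cells had 10.26, 10.08 and 10.09 at 6 h, 10.12, 9.85 and 10.02 at 12 h, then 10.13, 9.72 and 9.74 at 24 h. At 24 h the stimulated WT libraries were all above the vehicle ones. The log2 change of ITGAX was -0.77 ± 0.30 at 6 h (adjusted p = 0.0456), -0.19 ± 0.30 at 12 h (adjusted p = 0.67) and 0.32 ± 0.30 at 24 h (adjusted p = 0.431) in KO cells and -0.03 ± 0.30 at 6 h (adjusted p = 0.951), 0.26 ± 0.30 at 12 h (adjusted p = 0.526) and 0.84 ± 0.30 at 24 h (adjusted p = 0.0243) in WT cells (limma). ITGAX lost its KO call at 6 h without any 1 of KO stimulated 6 h replicate 1, 2 and 3 and KO vehicle 6 h replicate 1, 2 and 3, with a log2 change of -0.81 to -0.74 and an adjusted p of 0.0741 to 0.0989. ITGAX also lost its KO call at 6 h with no mean-variance trend (-0.77, adjusted p = 0.0574) and with the 2 libraries least like their own group left out (-0.75, adjusted p = 0.0823). ITGAX lost its WT call at 24 h without any 1 of WT stimulated 24 h replicate 3 and WT vehicle 24 h replicate 2 and 3, with a log2 change of 0.72 to 0.78 and an adjusted p of 0.0707 to 0.0918. ITGAX also lost its WT call at 24 h with the 2 libraries least like their own group left out (0.72, adjusted p = 0.0892). With the 4 libraries that lay closest to the other genotype left out, which include replicate 2 of all 3 stimulated KO groups, ITGAX was called lower in KO cells at 12 h (-0.62, adjusted p = 0.0196).

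ITGAL, the CD11a subunit of LFA-1, fell in both genotypes at 6 h. Over all times it ranged over 7.69 to 10.17 in stimulated KO cells, against 9.18 to 10.99 in vehicle KO cells. It ranged over 7.60 to 10.28 in stimulated WT cells, against 8.97 to 10.63 in vehicle WT cells. Within each time, the stimulated KO libraries lay below the vehicle ones, while the WT groups overlapped at 12 and 24 h, where replicate 2 was the highest of the stimulated libraries. The log2 change of ITGAL was -1.69 ± 0.53 at 6 h (adjusted p = 0.0126), -1.23 ± 0.53 at 12 h (adjusted p = 0.0724) and -1.07 ± 0.53 at 24 h (adjusted p = 0.112) in KO cells and -1.60 ± 0.53 at 6 h (adjusted p = 0.0189), -1.06 ± 0.53 at 12 h (adjusted p = 0.114) and -0.82 ± 0.53 at 24 h (adjusted p = 0.213) in WT cells (limma). With the replicate number as a block, which same-numbered libraries supported at 12 h, ITGAL was called lower at 12 h in KO cells (adjusted p = 0.0137) and in WT cells (adjusted p = 0.0295). ITGAL lost its KO call at 6 h without KO vehicle 6 h replicate 1, with a log2 change of -1.37 and an adjusted p of 0.0747. ITGAL lost its WT call at 6 h without any 1 of WT stimulated 6 h replicate 3 and WT vehicle 6 h replicate 2, with a log2 change of -1.42 to -1.38 and an adjusted p of 0.0719 to 0.0812. ITGAL gained a lower call in WT cells at 12 h without WT stimulated 12 h replicate 2, with a log2 change of -1.71 and an adjusted p of 0.0137. ITGAL gained a lower call in WT cells at 24 h without WT stimulated 24 h replicate 2, with a log2 change of -1.51 and an adjusted p of 0.0211.

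ITGB2, the CD18 subunit shared by LFA-1, Mac-1 and CD11c/CD18, fell in WT cells at 24 h and passed in no other stimulation comparison. It ranged over 10.84 to 11.94 in stimulated KO cells, against 11.41 to 12.29 in vehicle KO cells. It ranged over 10.04 to 11.52 in stimulated WT cells, against 11.16 to 11.89 in vehicle WT cells, and the lowest of these was WT stimulated 24 h replicate 3. Stimulated and vehicle libraries overlapped at each time in both genotypes. The log2 change of ITGB2 was -0.23 ± 0.29 at 6 h (adjusted p = 0.568), -0.57 ± 0.29 at 12 h (adjusted p = 0.125) and -0.44 ± 0.29 at 24 h (adjusted p = 0.229) in KO cells and -0.48 ± 0.29 at 6 h (adjusted p = 0.196), -0.48 ± 0.29 at 12 h (adjusted p = 0.184) and -0.71 ± 0.29 at 24 h (adjusted p = 0.0412) in WT cells (limma). With the replicate number as a block, ITGB2 was called lower in KO cells at 12 h (adjusted p = 0.0389). ITGB2 lost its WT call at 24 h without any 1 of WT stimulated 24 h replicate 3 and WT vehicle 24 h replicate 1 and 2, with a log2 change of -0.70 to -0.32 and an adjusted p of 0.0865 to 0.369. ITGB2 also lost its WT call at 24 h with only the libraries compared in the fit (-0.71, adjusted p = 0.185), with no mean-variance trend (-0.71, adjusted p = 0.0524) and with the 2 libraries least like their own group left out (-0.32, adjusted p = 0.344).

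ITGA4, the alpha 4 subunit of VLA-4 and of the alpha 4 beta 7 receptor, fell in WT cells at 12 and 24 h and in KO cells at 24 h. Over all times it ranged over 5.59 to 8.56 in stimulated KO cells, against 7.22 to 9.77 in vehicle KO cells. It ranged over 4.52 to 8.05 in stimulated WT cells, against 8.04 to 9.41 in vehicle WT cells, and the lowest was again WT stimulated 24 h replicate 3. At 24 h ITGA4 was 6.47, 7.78 and 4.52 in stimulated WT libraries, against 9.41, 9.37 and 8.04 in vehicle ones, with no overlap. The log2 change of ITGA4 was -1.27 ± 0.60 at 6 h (adjusted p = 0.098), -1.17 ± 0.60 at 12 h (adjusted p = 0.138) and -1.52 ± 0.60 at 24 h (adjusted p = 0.0466) in KO cells and -1.10 ± 0.60 at 6 h (adjusted p = 0.162), -1.69 ± 0.60 at 12 h (adjusted p = 0.0267) and -2.69 ± 0.60 at 24 h (adjusted p = 6.08e-04) in WT cells (limma). ITGA4 lost its KO call at 24 h without any 1 of KO stimulated 24 h replicate 2 and 3 and KO vehicle 24 h replicate 1 and 2, with a log2 change of -1.46 to -1.27 and an adjusted p of 0.104 to 0.162. ITGA4 also lost its KO call at 24 h with no mean-variance trend (-1.52, adjusted p = 0.0547) and with the 4 libraries closest to the other genotype left out (-1.27, adjusted p = 0.078). ITGA4 lost its WT call at 12 h without any 1 of WT stimulated 12 h replicate 1 and 3 and WT vehicle 12 h replicate 1 and 2, with a log2 change of -1.69 to -1.30 and an adjusted p of 0.0612 to 0.137. ITGA4 gained a lower call in KO cells at 6 h without any 1 of KO stimulated 6 h replicate 1 and KO vehicle 6 h replicate 2, with a log2 change of -1.87 to -1.74 and an adjusted p of 0.023 to 0.0407.

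ITGB7, the beta 7 subunit that pairs with ITGA4 or ITGAE, ranged over 9.65 to 11.01 in stimulated KO cells, against 10.34 to 11.24 in vehicle KO cells. It ranged over 8.13 to 10.03 in stimulated WT cells, against 9.44 to 10.68 in vehicle WT cells. The log2 change of ITGB7 was -0.26 ± 0.41 at 6 h (adjusted p = 0.644), -0.69 ± 0.41 at 12 h (adjusted p = 0.193) and -0.67 ± 0.41 at 24 h (adjusted p = 0.2) in KO cells and -0.44 ± 0.41 at 6 h (adjusted p = 0.427), -0.70 ± 0.41 at 12 h (adjusted p = 0.174) and -0.97 ± 0.41 at 24 h (adjusted p = 0.0516) in WT cells, and none passed (limma). With the replicate number as a block, ITGB7 was called lower in WT cells at 24 h (adjusted p = 0.0125). ITGB7 gained a lower call in WT cells at 24 h without any 1 of WT stimulated 24 h replicate 2 and WT vehicle 24 h replicate 3, with a log2 change of -1.37 to -1.25 and an adjusted p of 0.0106 to 0.0258.

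The second comparison set KO against WT cells without and with stimulation. Whether the KO line was 1 clone is not given, so loss of IRG1 and other differences of the line cannot be told apart. ACOD1 averaged 0.10 in vehicle KO and 0.38 in vehicle WT cells, both below the low-value limit. In vehicle cells averaged over the 3 times, ICAM1 was lower in KO cells, and ICAM3, ITGAM and ITGB7 were higher. In stimulated cells averaged over the 3 times, VCAM1, ICAM2 and ITGB7 were higher in KO cells, and ITGAX was lower. At single times, 0 of the 10 genes passed in vehicle cells, with 3, 2 and 2 at an unadjusted p below 0.05 at 6, 12 and 24 h (limma). The background at these times was 4.28% of all tested genes higher and 3.91% lower at 6 h, 2.90% of all tested genes higher and 2.34% lower at 12 h and 2.23% of all tested genes higher and 1.75% lower at 24 h. With the replicate number as a block, ITGAM was called higher in vehicle KO cells at 12 h (0.72, adjusted p = 0.0362) and at 24 h (0.78, adjusted p = 0.0263). ICAM3 gained a higher call in vehicle KO cells at 6 h without WT vehicle 6 h replicate 3, with a log2 change of 1.66 and an adjusted p of 0.0399. The 2 and the 4 libraries that stood apart were all stimulated, so leaving them out keeps each vehicle difference and changes its p alone. Then ICAM1 was called lower at 6 h (-1.30, adjusted p = 0.0184 without the 2 and 0.0455 without the 4), and ITGAM higher at 12 h without the 2 (adjusted p = 0.0482) and at 24 h (adjusted p = 0.0378 without the 2 and 0.0441 without the 4). Averaged over the 3 times, 3 of the 10 were called higher and 1 lower in vehicle KO cells, beside 11.4% of all tested genes higher and 12.0% lower. The averages over the 3 times, here and below, take 9 libraries per genotype and treatment as separate. Same-numbered vehicle libraries at 24 and 6 h correlated, after group means were subtracted, at 0.263 to 0.416 in KO cells. The range was 0.380 to 0.510 in WT cells. If same-numbered libraries share a culture, the p-values of the averages may be too small, which was not tested.

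Over the 9 libraries of each genotype, ICAM1 had log2 values of 4.91 to 6.69 in vehicle KO cells, against 6.10 to 7.41 in vehicle WT cells, with KO replicate 2 at 6 h and at 12 h above the lowest WT library, replicate 3 at 24 h. It averaged 5.58 in vehicle KO cells and 6.78 in vehicle WT cells, a log2 change of -1.19 ± 0.29 (adjusted p = 0.00251, limma), or 2.29-fold lower in KO cells. ITGAM had 9.86 to 10.54 in vehicle KO cells, against 9.23 to 9.91 in vehicle WT cells, and averaged 10.18 in KO and 9.59 in WT cells (0.59 ± 0.15, adjusted p = 0.00343). ICAM3 had 6.91 to 8.45 in vehicle KO cells, against 6.36 to 7.86 in vehicle WT cells, and its groups overlapped widely (0.83 ± 0.27, adjusted p = 0.0267). ITGB7 had 10.34 to 11.24 in vehicle KO cells, against 9.44 to 10.68 in vehicle WT cells, again with overlap (0.71 ± 0.23, adjusted p = 0.0272). ICAM3 lost this call without any 1 of KO vehicle 12 h replicate 1 and 3, KO vehicle 24 h replicate 3, KO vehicle 6 h replicate 3, WT vehicle 12 h replicate 1, WT vehicle 24 h replicate 1 and WT vehicle 6 h replicate 1 and 2, with a log2 change of 0.70 to 0.78 and an adjusted p of 0.0526 to 0.0731. ITGB7 lost this call without any 1 of KO vehicle 12 h replicate 1, KO vehicle 24 h replicate 1, KO vehicle 6 h replicate 1, WT vehicle 12 h replicate 1, WT vehicle 24 h replicate 3 and WT vehicle 6 h replicate 1 and 3, with a log2 change of 0.61 to 0.68 and an adjusted p of 0.0504 to 0.0705. Without KO vehicle 12 h replicate 1, WT vehicle 12 h replicate 1 or WT vehicle 6 h replicate 1, 2 of the 10 were called in all. VCAM1 averaged 0.19 in vehicle KO cells and 0.92 in vehicle WT cells, both below the low-value limit, a log2 change of -0.73 that did not pass (adjusted p = 0.139). VCAM1 was called lower in vehicle KO cells without the 2 libraries that stood apart (adjusted p = 0.013), without the 4 (adjusted p = 0.0481) and with library weights (adjusted p = 0.00239). The calls of ICAM1, ICAM3, ITGAM and ITGB7 held without the 2 and without the 4, with an adjusted p of at most 0.0272. ITGAX, ITGB2, ITGA4, ICAM2 and ITGAL had log2 changes between -0.43 for ICAM2 and 0.53 for ITGAL, and none passed.

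In stimulated cells at single times, 0 of the 10 genes passed at 6 h, with 4 at an unadjusted p below 0.05, and 0 at 12 h, with 1 at that level (limma). The background was 4.86% of all tested genes higher and 3.86% lower at 6 h and 1.78% of all tested genes higher and 1.68% lower at 12 h. At 24 h, 1 was called higher, VCAM1, and 0 lower, beside 3.41% of all tested genes higher and 2.46% lower. VCAM1 averaged 11.80 ± 0.43 in stimulated KO cells and 9.30 ± 1.34 in stimulated WT cells at 24 h (SD, n = 3 each), a log2 change of 2.50 ± 0.60 (adjusted p = 0.0132), or 5.67-fold. The KO libraries were all above the WT ones at 12 and 24 h, but at 6 h KO replicate 2 was below all 3 WT libraries. VCAM1 lost its call at 24 h without any 1 of KO stimulated 24 h replicate 1 and WT stimulated 24 h replicate 3, with a log2 change of 1.73 to 2.27 and an adjusted p of 0.0902 to 0.142. VCAM1 also lost its call at 24 h with only the libraries compared in the fit (2.50, adjusted p = 0.209). VCAM1 gained a call at 6 h without KO stimulated 6 h replicate 2, with a log2 change of 2.04 and an adjusted p of 0.0172. ICAM3 gained a higher call at 6 h without WT stimulated 6 h replicate 3, with a log2 change of 1.66 and an adjusted p of 0.0462. ITGB7 gained a higher call at 6 h without KO stimulated 6 h replicate 3, with a log2 change of 1.52 and an adjusted p of 0.0279. ITGAX gained a lower call at 24 h without KO stimulated 24 h replicate 2, with a log2 change of -1.07 and an adjusted p of 0.0162. ITGA4 gained a higher call at 24 h without WT stimulated 24 h replicate 2, with a log2 change of 2.36 and an adjusted p of 0.016. Of the libraries that stood apart, leaving out the 2 or the 4 gave VCAM1 at 24 h a log2 change of 1.73 without the 2 libraries (adjusted p = 0.0214) and 3.00 without the 4 (adjusted p = 0.00185). Without the 4, 2, 2 and 3 of the 10 genes were called at 6, 12 and 24 h, among them ITGAX, with log2 changes of -0.76, -0.87 and -1.15. ITGA4 was called at 24 h without the 4 (2.60, adjusted p = 0.00764). The 4 were picked by likeness to the other genotype, a choice that tends to widen these differences. VCAM1 was called at 6 h (2.04, adjusted p = 0.00283 without the 2 and 0.0154 without the 4) and at 12 h (1.67, adjusted p = 0.00769 without the 2, and 1.77, adjusted p = 0.0416 without the 4). With the replicate number as a block, ITGA4 was also called higher in stimulated KO cells at 24 h (1.60, adjusted p = 0.0458).

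Averaged over the 3 times, 3 of the 10 genes were called higher and 1 lower in stimulated KO cells, beside 12.2% of all tested genes higher and 10.4% lower. VCAM1 averaged 11.54 in stimulated KO cells and 9.80 in stimulated WT cells (1.74 ± 0.35, adjusted p = 5.68e-04, limma), or 3.33-fold. ICAM2 had 6.23 to 8.29 in stimulated KO cells, against 5.32 to 6.76 in stimulated WT cells, with a log2 change of 0.93 ± 0.26 (adjusted p = 0.00894). ITGB7 had 9.65 to 11.01 in stimulated KO cells, against 8.13 to 10.03 in stimulated WT cells, with 0.87 ± 0.23 (adjusted p = 0.00777). ITGAX had 9.29 to 11.16 in stimulated KO cells, against 9.97 to 10.95 in stimulated WT cells, with -0.59 ± 0.18 (adjusted p = 0.0153). All 4 sets of values overlapped between the genotypes. Leaving out libraries that stood apart gave VCAM1 1.82 without the 2 libraries (adjusted p = 3.29e-06) and 2.27 without the 4 (adjusted p = 9e-06). It gave ICAM2 0.68 without the 2 libraries (adjusted p = 0.0443) and 1.02 without the 4 (adjusted p = 0.00348), ITGB7 0.65 without the 2 libraries (adjusted p = 0.0348) and 1.09 without the 4 (adjusted p = 0.00269), and ITGAX -0.55 without the 2 libraries (adjusted p = 0.04) and -0.93 without the 4 (adjusted p = 3.65e-06). ITGAX also lost this call with only the libraries compared in the fit (-0.59, adjusted p = 0.0787). Without the 4, ITGA4 (1.22, adjusted p = 0.00727) and ITGB2 (0.57, adjusted p = 0.0161) were called higher in stimulated KO cells too. Leaving out the 4 tends to widen genotype differences by the way they were picked. ITGB7 was the 1 gene of the 10 called higher in KO cells in both the vehicle and the stimulated average. ICAM1 averaged 11.94 in stimulated KO cells and 11.39 in stimulated WT cells and did not pass (0.55, adjusted p = 0.173). ICAM1 gained a higher call without WT stimulated 24 h replicate 2, with a log2 change of 0.75 and an adjusted p of 0.0453. ITGA4 gained a higher call without WT stimulated 24 h replicate 2, with a log2 change of 0.91 and an adjusted p of 0.0405. ITGAM averaged 8.11 and 8.05 in stimulated KO and WT cells (0.06, adjusted p = 0.817).

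Levels of cell type markers stood beside these genotype and stimulation results as follows. For each list, linear values were summed over its markers and the log2 of the sum is given. Such a sum follows the markers with the highest values, and their scaling to gene length is not given. For the macrophage and monocyte markers, all 16 detected, it was 13.3 to 14.4 in stimulated KO libraries and 13.9 to 14.9 in stimulated WT libraries. It was 13.4 to 14.1 in vehicle KO libraries and 14.3 to 15.5 in vehicle WT libraries. The highest values of LYZ and CD68 were 14.3 and 13.5. The 5 measured B cell markers summed to 7.37 to 8.62 in stimulated KO and 6.51 to 7.82 in stimulated WT libraries, and to 5.63 to 6.23 in vehicle KO and 4.95 to 5.84 in vehicle WT libraries. PAX5 had a median of 4.96, CD79B of 4.14 and CR2 of 0.281. The 8 measured endothelial and stromal markers summed to 4.94 to 5.67 in stimulated KO and 6.20 to 8.01 in stimulated WT libraries, and to 5.46 to 6.93 in vehicle KO and 5.50 to 7.08 in vehicle WT libraries, with COL1A1 at a median of 4.18 and above the low-value limit in 33 libraries, and CDH5 at a median of 1.62. The 4 measured of 8 T cell markers summed to 3.58 to 7.22 in stimulated KO and 3.52 to 6.46 in stimulated WT libraries, and to 3.75 to 4.51 in vehicle KO and 3.58 to 5.44 in vehicle WT libraries, with CD8A at a median of 3.61 and CD2 of 0.005. The 6 NK cell markers summed to 7.15 to 9.12 in stimulated KO and 6.76 to 8.79 in stimulated WT libraries, and to 6.52 to 8.19 in vehicle KO and 6.52 to 8.57 in vehicle WT libraries, with NKG7 (median 6.25) and GNLY (median 6.04) above the limit in all 36 libraries and NCR1 at a median of 0.272. The part of these levels in the results was not tested.

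The difference between the genotypes in their response to stimulation was tested directly, as the KO response minus the WT response. Averaged over the 3 times, 3 of the 10 genes were called, VCAM1, ICAM1 and ICAM2, all with a larger response in KO cells and 0 with a smaller one, beside 3.32% of all tested genes higher and 2.92% lower. The response of VCAM1 was larger in KO cells by 2.46 ± 0.49 on the log2 scale (adjusted p = 0.00209, limma), with 1.89, 2.38 and 3.13 at 6, 12 and 24 h. It is made of a difference of 1.74 between the genotypes in stimulated cells and of -0.73 in vehicle cells, where both means were below the low-value limit and the offset is not given. For ICAM1 it was 1.75 ± 0.41 (adjusted p = 0.00784), with 1.72, 1.44 and 2.08, where vehicle KO cells were lower than WT and stimulated cells did not pass. For ICAM2 it was 1.36 ± 0.36 (adjusted p = 0.0204), with 1.17, 1.23 and 1.70. All 9 of these single-time differences were above 0, but the genes were called on the means of these same differences, so their signs lend no support. Leaving out libraries that stood apart gave VCAM1 2.54 without the 2 libraries (adjusted p = 1.67e-05) and 3.00 without the 4 (adjusted p = 5.71e-05). It gave ICAM1 1.60 without the 2 libraries (adjusted p = 0.00165) and 1.902 without the 4 (adjusted p = 0.00163), and ICAM2 1.12 without the 2 libraries (adjusted p = 0.0401) and 1.45 without the 4 (adjusted p = 0.00531). ITGAX, without the 4, had a smaller response in KO cells (-0.90, adjusted p = 0.000603), at 24 h too (-1.11, adjusted p = 0.0357). Here too the choice of the 4 tends to widen the differences between the genotypes. At single times the response of VCAM1 was called without the 2 at 6 h (2.89, adjusted p = 0.0112) and 12 h (2.38, adjusted p = 0.0462), and without the 4 at 6 h (2.89, adjusted p = 0.0496) and 24 h (3.62, adjusted p = 0.0124), and that of ICAM2 without the 4 at 24 h (2.20, adjusted p = 0.0439). ICAM3 and the 6 integrin subunits did not pass, with averages between -0.57 for ITGAX and 0.51 for ITGA4. ITGAX gained a smaller response in KO cells without KO stimulated 24 h replicate 2, with a log2 change of -0.74 and an adjusted p of 0.0228. At single times, 0 of the 10 passed, with 2, 2 and 4 at an unadjusted p below 0.05, beside 0.283% of all tested genes higher and 0.170% lower at 6 h, 0.0612% of all tested genes higher and 0.0989% lower at 12 h and 0.174% of all tested genes higher and 0.259% lower at 24 h. VCAM1 gained a call at 24 h without WT stimulated 24 h replicate 2, with a log2 change of 3.58 and an adjusted p of 0.0487.

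**Figure D4:**
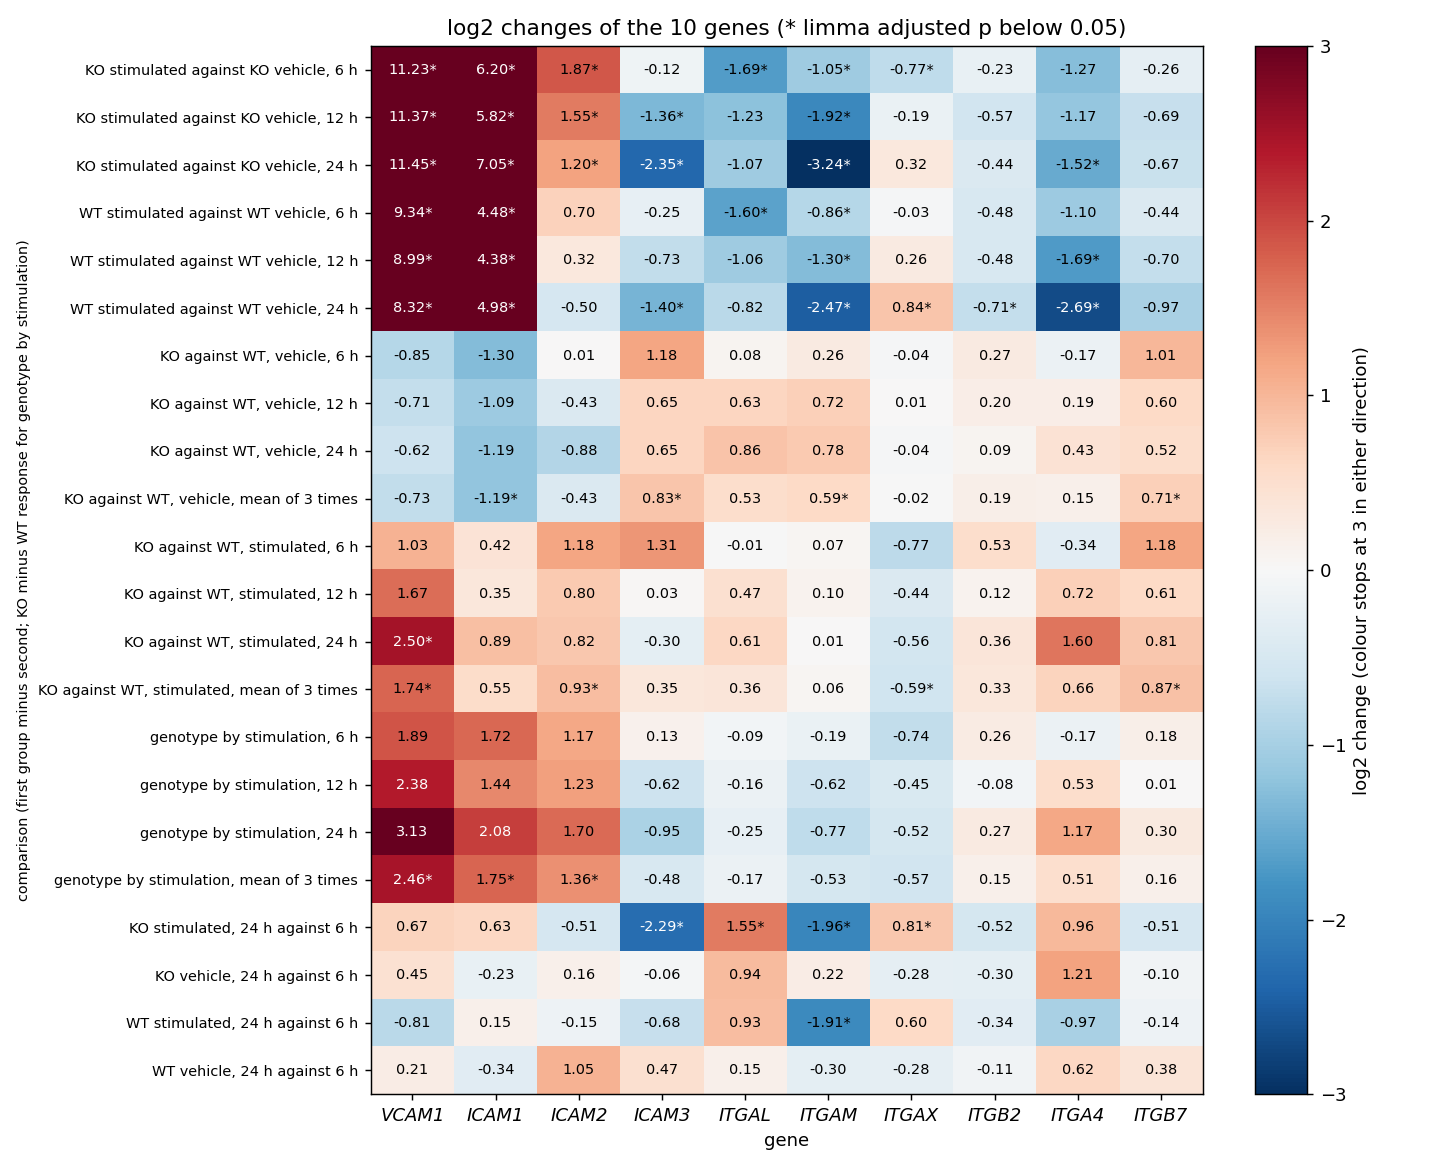
Log2 change of each gene (columns) in 22 comparisons (rows, first-named group minus second, or KO response minus WT response), with colour from blue (lower) to red (higher) and an asterisk where the limma adjusted p was below 0.05. The VCAM1, ICAM1 and ICAM2 columns are red in the rows of stimulated against vehicle KO cells and in the genotype-by-stimulation rows, and the ITGAM column is blue in all 6 stimulation rows.

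The last comparison set 24 h against 6 h within each group. In stimulated KO cells ITGAL and ITGAX were called higher at 24 h, and ICAM3 and ITGAM lower, 2 of the 10 in each direction, beside 14.5% of all tested genes higher and 13.0% lower (limma). ICAM3 had a log2 change of -2.29 ± 0.47 (adjusted p = 7.23e-04), or 4.90-fold lower, and ITGAM -1.96 ± 0.25 (adjusted p = 2.58e-06), or 3.89-fold lower. ITGAL had 1.55 ± 0.53 (adjusted p = 0.0294) and ITGAX 0.81 ± 0.30 (adjusted p = 0.0461). ITGAL lost this call without any 1 of KO stimulated 24 h replicate 1 and 2 and KO stimulated 6 h replicate 2 and 3, with a log2 change of 1.22 to 1.56 and an adjusted p of 0.0642 to 0.144. ITGAL also lost it with only the libraries compared in the fit (1.55, adjusted p = 0.0547), with the 2 libraries least like their own group left out (1.42, adjusted p = 0.0609) and with the 4 libraries closest to the other genotype left out (1.09, adjusted p = 0.209). ITGAX lost this call without any 1 of KO stimulated 24 h replicate 2 and KO stimulated 6 h replicate 1, 2 and 3, with a log2 change of 0.31 to 0.83 and an adjusted p of 0.0752 to 0.449. ITGAX also lost it with only the libraries compared in the fit (0.81, adjusted p = 0.269), with no mean-variance trend (0.81, adjusted p = 0.0585), with library weights (0.49, adjusted p = 0.0923), with the 2 libraries least like their own group left out (0.80, adjusted p = 0.0964) and with the 4 libraries closest to the other genotype left out (0.29, adjusted p = 0.405). Without KO stimulated 24 h replicate 2, KO stimulated 6 h replicate 2 or KO stimulated 6 h replicate 3, 2 of the 10 were called in all. In stimulated WT cells 0 were called higher and 1 lower, ITGAM, beside 10.8% of all tested genes higher and 12.0% lower. ITGAM had a log2 change of -1.91 ± 0.25 there (adjusted p = 3.96e-06), or 3.75-fold lower. ITGAL gained a higher call in WT cells without WT stimulated 24 h replicate 3, with a log2 change of 1.56 and an adjusted p of 0.0433. ITGA4 gained a lower call in WT cells without WT stimulated 24 h replicate 2, with a log2 change of -1.74 and an adjusted p of 0.04. In vehicle KO cells 0 of the 10 were called, with 0 at an unadjusted p below 0.05, beside 0.226% of all tested genes higher and 0.608% lower. In vehicle WT cells 0 were called, with 1 at an unadjusted p below 0.05, beside 0.00942% of all tested genes higher and 0.0801% lower. VCAM1 and ICAM1 did not pass between 24 and 6 h of stimulation, with log2 changes of 0.67 and 0.63 in KO cells and -0.81 and 0.15 in WT cells.

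Genes that act with these molecules were described from lists drawn up for integrin biology, with counts at 24 h and changes on the log2 scale. The genes named by rule were called in 1 direction at all 3 times and had the largest mean change of their list. ITGB1, MADCAM1, TLN1 and FERMT3 were added after their values were seen, for their part in the same receptors. List counts at 24 h stand beside 17.3% of all tested genes higher and 21.6% lower in KO cells and 20.2% and 26.1% in WT cells. Of 12 tested other alpha integrins, 3 were higher and 1 lower in stimulated KO cells, and 3 and 2 in stimulated WT cells, against vehicle. ITGA1, a collagen receptor subunit, rose by 3.87, 5.09 and 5.12 at 6, 12 and 24 h in KO cells and by 3.52, 4.74 and 4.71 in WT cells, with all adjusted p at or below 2.72e-06 (limma). ITGA10, another collagen receptor subunit, rose by 2.31, 2.64 and 1.39 in KO and by 2.29, 3.16 and 1.58 in WT cells. Of 6 other beta integrins, 2 were higher and 2 lower in KO cells, and 3 and 2 in WT cells. ITGB8, which pairs with ITGAV to activate TGF-β, rose by 6.25, 6.59 and 5.15 in KO and by 7.56, 6.53 and 5.19 in WT cells. ITGB5 and ITGB4 fell in both genotypes, ITGB5 with log2 changes of -1.56, -3.21 and -3.80 in KO and -1.66, -2.55 and -2.86 in WT cells. ITGB1, the partner of ITGA4 in VLA-4, did not pass in either genotype, with -1.06, -0.83 and -0.80 in KO and -0.63, -0.74 and -0.68 in WT cells.

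Among 18 other immunoglobulin-family adhesion genes, 7 were higher and 3 lower in stimulated KO cells, and 5 and 2 in stimulated WT cells, at 24 h, beside 17.3% of all tested genes higher and 21.6% lower in KO cells and 20.2% and 26.1% in WT cells. CEACAM1 rose by 4.60, 3.04 and 3.18 in KO and by 3.25, 2.93 and 3.33 in WT cells. ICAM5 and ICAM4 lie between ICAM1 and ICAM3 on chromosome 19, together with ZGLP1, FDX2 and RAVER1. ICAM5, an LFA-1 ligand named telencephalin after its site in the brain, rose by 4.88, 3.56 and 3.71 in KO cells and had 1.20, 1.41 and 2.30 in WT cells. In vehicle cells averaged over the 3 times, ICAM5 was 1.66 in KO cells, below the low-value limit, and 3.63 in WT cells (-1.96, adjusted p = 5.23e-05, limma). Its KO changes were thus taken from a lower vehicle level, near the bottom of the scale. MADCAM1, the ligand of alpha 4 beta 7, did not pass in either genotype. Of 10 tested selectins and selectin ligands, 2 were higher and 2 lower in KO cells, and 1 and 2 in WT cells. CD44, the hyaluronan receptor, rose by 4.38, 3.55 and 3.42 in KO and by 4.70, 4.12 and 3.13 in WT cells. Of 11 tested soluble and complement ligands, 2 were higher and 4 lower in KO cells, and 1 and 3 in WT cells. C3, whose fragment iC3b is the ligand of Mac-1 and CD11c/CD18, rose by 2.86, 3.69 and 3.53 in KO cells.

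Of 30 tested integrin activators and adaptors, 8 were higher and 10 lower in stimulated KO cells, and 8 and 11 in stimulated WT cells, at 24 h, beside 17.3% of all tested genes higher and 21.6% lower in KO cells and 20.2% and 26.1% in WT cells. APBB1IP (RIAM), which links Rap1 to talin, fell with log2 changes of -2.93, -2.39 and -3.13 in KO and -3.95, -3.86 and -3.13 in WT cells. TLN1 (talin 1) did not pass at any time in either genotype, while FERMT3, the leukocyte kindlin, was lower at 6 h alone (-1.13 in KO, adjusted p = 0.0171, and -1.17 in WT cells, adjusted p = 0.0149, limma). Of 15 tested restrainers and regulators of recycling, 2 were higher and 7 lower in KO cells, and 2 and 4 in WT cells. DOK2 fell in both genotypes and CD82, a tetraspanin, rose in both. Of 21 signalling kinases and exchange factors, 4 were higher and 3 lower in KO cells, and 4 and 6 in WT cells. SRC rose by 4.57, 5.32 and 5.65 in KO and by 3.81, 4.58 and 5.00 in WT cells, whereas SYK, the kinase downstream of beta 2 integrins, fell with -1.74, -2.34 and -2.65 in KO and -2.18, -2.62 and -2.91 in WT cells. Of 22 transcription factors known to act on adhesion genes, 14 were higher in each genotype, with 4 lower in KO and 2 lower in WT cells, read against those same shares. RELB rose by 4.87, 5.16 and 5.74 in KO and by 3.65, 3.90 and 3.96 in WT cells. IRF1, an interferon regulatory factor, rose by 3.87, 4.45 and 5.00 in KO and by 4.20, 4.87 and 4.98 in WT cells. The list medians at 24 h ran from -0.75 for the restrainers to 1.78 for the transcription factors in KO cells, beside -0.08 over all genes tested, and from -0.82 for the soluble ligands to 1.66 for the transcription factors in WT cells, beside -0.11.

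**Figure D5:**
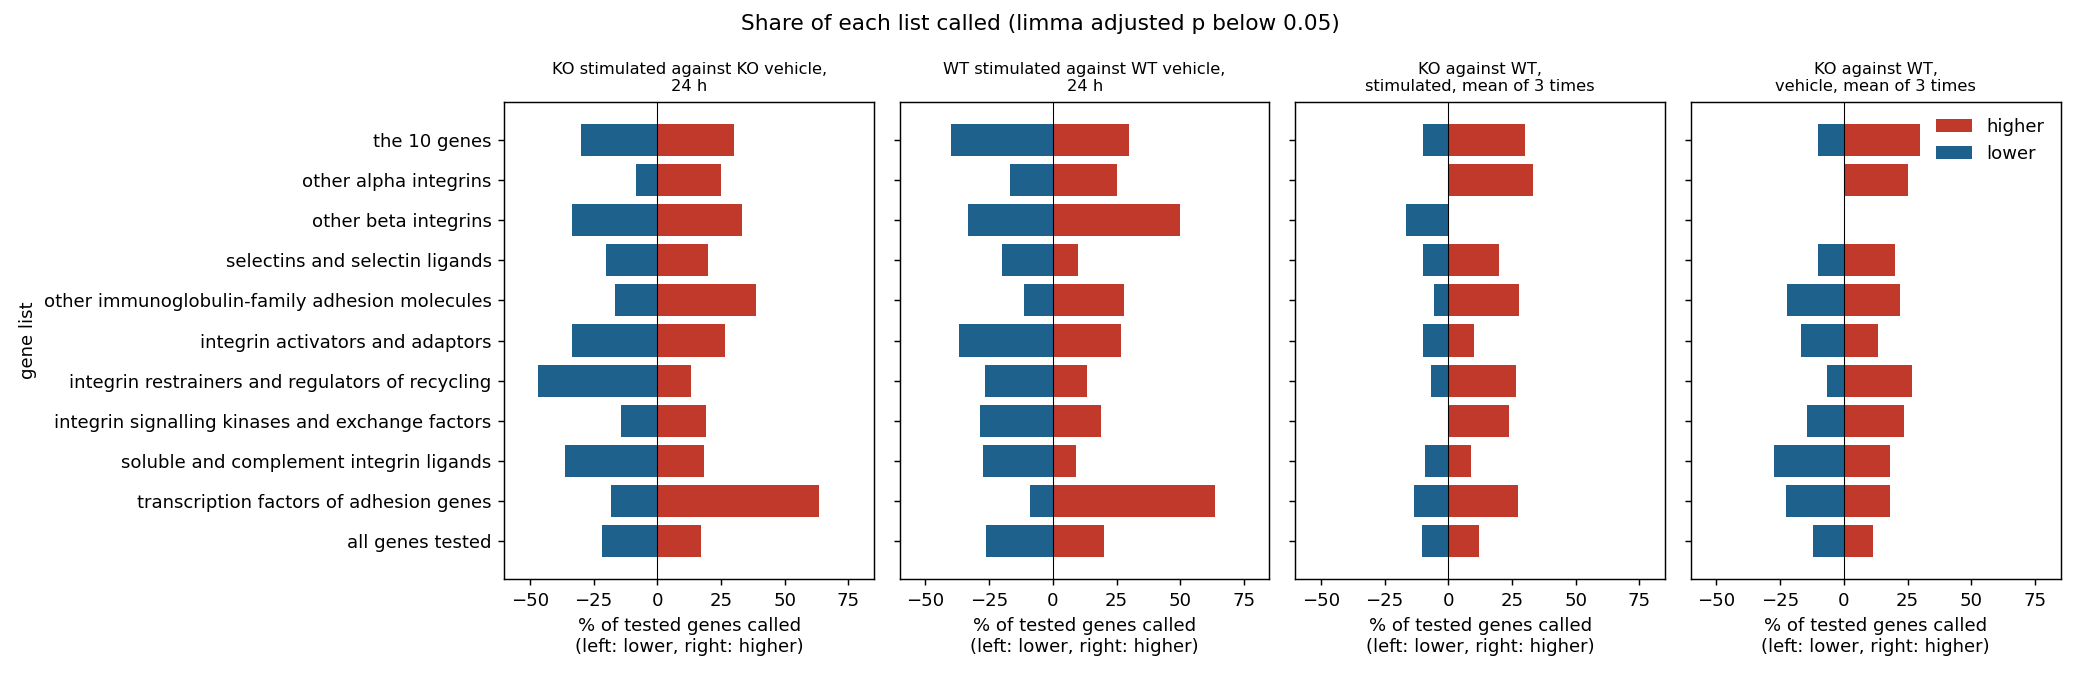
Percent of tested genes called higher (red, right of 0) and lower (blue, left of 0) in each list, the 10 genes and all genes tested, for stimulation at 24 h in KO and in WT cells and for KO against WT averaged over 3 times in stimulated and in vehicle cells. The list of transcription factors has 14 of 22 called higher with stimulation in each genotype, and all genes tested stand in the lowest row.

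Between the genotypes, averaged over the 3 times, 4 of 12 other alpha integrins were higher and 0 lower in stimulated KO cells, and 3 and 0 in vehicle KO cells, beside 12.2% of all tested genes higher and 10.4% lower in stimulated cells and 11.4% and 12.0% in vehicle cells. ITGA9 was higher by 1.83 (adjusted p = 4.17e-05, limma) in stimulated KO cells, and ITGA11 by 1.26 there and by 1.94 in vehicle KO cells. Of 6 other beta integrins 1 was lower in stimulated KO cells, ITGB5 (-0.81, adjusted p = 5.01e-04), and 0 differed in vehicle cells. SELPLG, the P-selectin ligand PSGL-1, was lower in KO cells with and without stimulation (-1.21 and -1.39), and ST3GAL4, a sialyltransferase of selectin ligands, was higher in vehicle KO cells (2.03, adjusted p = 6.57e-09). The selectin list had 2 higher and 1 lower in each setting. L1CAM, an adhesion molecule best known from neurons, was higher by 1.45 in stimulated and 2.60 in vehicle KO cells, and the immunoglobulin-family list had 5 higher and 1 lower in stimulated cells, and 4 and 4 in vehicle cells.

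Of 30 activators and adaptors, 3 were higher and 3 lower in stimulated KO cells, and 4 and 5 in vehicle KO cells, beside 12.2% of all tested genes higher and 10.4% lower in stimulated cells and 11.4% and 12.0% in vehicle cells. LPXN (leupaxin) was lower in both (-0.88, adjusted p = 4.50e-04, and -1.74, adjusted p = 1.31e-08, limma). MMP9, a secreted gelatinase kept with the restrainers because metalloproteinases shed adhesion molecules, averaged 10.70 in stimulated KO cells and 14.87 in stimulated WT cells, and 10.77 in vehicle KO cells and 14.90 in vehicle WT cells, with log2 changes of -4.17 (adjusted p = 4.01e-07) and -4.13 (adjusted p = 2.68e-07). RAP1GAP, which switches Rap1 off, was higher in KO cells in both settings (1.74 and 1.76), and its list had 4 higher and 1 lower in each. RAP1GAP averaged 2.95 in stimulated KO and 1.21 in stimulated WT cells, both below the low-value limit. It averaged 3.98 in vehicle KO cells and 2.22, again below the limit, in vehicle WT cells. Of the signalling kinases, 5 were higher and 0 lower in stimulated KO cells, and 5 and 3 in vehicle KO cells, with PTK2B (PYK2) higher in both (1.14 and 0.87). C3 was higher in stimulated KO cells (1.69, adjusted p = 5.57e-06), and the soluble ligands had 1 higher and 1 lower there, and 2 and 3 in vehicle cells. Fibronectin, FN1, was lower in vehicle KO cells (-2.84, adjusted p = 8.74e-04). Of the transcription factors, 6 were higher and 3 lower in stimulated KO cells, and 4 and 5 in vehicle KO cells. NFKB2 was lower in vehicle KO cells (-1.51, adjusted p = 8.74e-09), as ICAM1 was, and FOSL1 was lower in stimulated KO cells (-1.89, adjusted p = 2.46e-05).

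By Pearson correlation over the 12 group means, among 15289 protein-coding genes that passed the filter, the patterns most like that of VCAM1 were those of BCL2L14 (0.9973), PIM2 (0.9961), TRAFD1 (0.9961), EDARADD (0.9956) and UBE2L6 (0.9955). The nearest to ICAM1 were IRF2 (0.9956), ZNF267 (0.9951), UBE2L6 (0.9950), WARS1 (0.9949) and RELB (0.9949). UBE2L6, the ISG15-conjugating enzyme, stood on both lists, and both rest on the contrast between stimulated and vehicle groups. For ITGAL they included MCMDC2 (0.9841), GNAQ (0.9793), ZNF671 (0.9791) and TMEM154 (0.9772). For ITGB7 they were CDIP1 (0.9934), GADD45A (0.9770), SCUBE1 (0.9642), RAP1GAP (0.9549) and JMJD4 (0.9548). These are descriptions over group means that share their libraries, with no test.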

How the data were processed

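RNA was extracted with Qiagen RNeasy columns and made into ribosome-depleted total RNA libraries (KAPA HyperPrep with RiboErase), per the labels' protocols. GSNAP, cutadapt 1.9.1 and genome build GRCh37.p5 are named in the submitters' processing notes; the counting tool, annotation, offset and normalization are not given in the sources used here. The deposited log2 values were used as the authors gave them. They ran from -0.34 to 16.7 in every library, with nearly the same value at each rank, so each level is relative to the rest of its library. The table held 21599 genes, and 20609 Entrez identifiers matched a symbol.

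Group means were fitted to all 36 libraries with limma 3.58.1 (R 4.3.3; trended empirical Bayes, residual degrees of freedom 24), and p-values were adjusted by Benjamini-Hochberg over 21232 genes in each of 22 comparisons. Folds are 2 to the power of a log2 difference and are understated for low genes by the authors' offset. In a test on simulated data for KO stimulated against KO vehicle at 6 h, over 21232 genes, 23 of 100 genes shifted by log2 1 and 56 of 100 shifted by log2 2 were recovered, with 6 false calls. All other genes were left unshifted, and the noise was independent between libraries. In the deposited data 16.2% of tested genes were called higher and 22.5% lower there, so the recovered shares need not hold for them. The main fit held no pairing, so its p-values take same-numbered libraries as separate. In 12 comparisons all 3 pairs of same-numbered libraries correlated above 0.1, and these are called paired here. Only the alternative with a replicate block used the numbers. The pairing comes from the data, since the labels do not say what a number marks.

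The 10 genes and all lists were chosen with earlier results of these data known. From each list, up to 4 called genes with the largest mean change were named, and for likeness the 5 genes closest to VCAM1, ICAM1, ITGAL and ITGB7. Some genes these rules name are not reported here. Alternatives were fits that left out each library in turn, held the replicate number as a block, weighted libraries, took in only the libraries compared, dropped the trend or tested a minimum log2 change of 1, and other filters, a pseudocount of 5, median centring and quantile normalization.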

Additional observations from a re-analysis of the deposited data

Results flagged for a closer look

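The difference between KO and WT cells in the response to LPS with IFN-γ was tested directly, averaged over the 3 times (limma). It was called for 3 of the 10 genes, all higher, beside 3.32% of all tested genes higher and 2.92% lower. The KO response exceeded the WT response by 2.46 for VCAM1 (adjusted p = 0.00209), by 1.75 for ICAM1 (adjusted p = 0.00784) and by 1.36 for ICAM2 (adjusted p = 0.0204), on the log2 scale. For each of these genes the difference was above 0 at 6, 12 and 24 h, and it passed at none of these times. The genes were called on the mean of these same differences, so the shared sign lends no support. Against a minimum log2 change of 1, none of the 3 genes kept its call. ICAM1 was lower in vehicle KO cells than in WT (-1.19, adjusted p = 0.00251), while stimulated cells did not pass (0.55, adjusted p = 0.173).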

How the results depend on the processing

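No called value of the 10 genes changed sign under any alternative run, and the filter settings, quantile normalization, median centring, the pseudocount of 5 and the fit with no mean-variance trend moved no count of called genes among the 10 by over 1.5 times. The deposited libraries already had nearly the same median and the same value at each rank. Quantile normalization and median centring could therefore change little, and their result says nothing about other normalizations. With library weights, whose estimate stopped before it converged, 8 of the 10 were called for stimulation in KO cells at 12 h, 3, 3 and 2 for KO against WT in vehicle cells at 6, 12 and 24 h, 4, 3 and 4 in stimulated cells, 2, 1 and 4 for the difference in response and 5 for its average, and 2 each for 24 against 6 h in vehicle KO and stimulated WT cells. These weights also raised the calls over all genes by over 1.5 times in 17 comparisons. For the response average they gave 6098 called genes, against 1325 in the main fit. The member counts are not read as particular to the 10 genes. Against a minimum log2 change of 1, the counts were 2 and 3 for KO stimulation at 6 and 12 h, 2, 2 and 4 for WT stimulation, 1 for 24 against 6 h in stimulated KO cells, and 0 for KO against WT in stimulated cells at 24 h and for the averages of KO against WT in vehicle cells, in stimulated cells and of the response. With only the libraries compared in the fit, 0 were called for KO against WT in stimulated cells at 24 h and 2 for 24 against 6 h in stimulated KO cells.

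With the replicate number as a block, 16 member calls were gained and none was lost; 2, 1 and 1 of the 10 were called for KO against WT in vehicle cells at 6, 12 and 24 h, 3 and 2 in stimulated cells at 6 and 24 h, and 2 for the response at 24 h. For KO against WT at 6 h, the stimulated average, KO stimulation at 24 h and the response, not all same-numbered pairs correlated above 0.1. These comparisons are therefore not called paired here, which does not show that their same-numbered libraries were unrelated. Beyond the calls given beside their results, the block changed no other call in a paired comparison.

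Without the 2 libraries least like their own group, chosen after seeing the data, 1 gene was called for KO against WT in vehicle cells at each time, 1 and 1 in stimulated cells at 6 and 12 h, 1 and 1 for the response at these times, and 2 and 2 for 24 against 6 h in stimulated KO and WT cells. Without the 4 closest to the other genotype, also chosen after seeing the data, 1 and 1 were called in vehicle cells at 6 and 24 h, 2, 2 and 3 in stimulated cells, 1 and 3 for the response at 6 and 24 h, and 2 and 3 for 24 against 6 h in stimulated KO and WT cells.

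Leaving out 1 library at a time gave 4 to 9 called genes for WT stimulation at 24 h, 0 to 1 and 2 to 4 for KO against WT in vehicle cells at 6 h and on average, 0 to 1 and 0 to 2 in stimulated cells at 6 and 24 h, 0 to 1 for the response at 24 h, and 2 to 4 and 1 to 2 for 24 against 6 h in stimulated KO and WT cells. The ITGAX change for KO stimulation at 12 h, which was not called, ranged from -0.62 to 0.072, with 0.0034 without KO vehicle 12 h replicate 2. Where a call changed, the cause was not tested. Over all genes, the stricter filter and the minimum change gave fewer calls in all 22 comparisons, and library weights gave more in 17; the response average had 1325 called genes, against 480 with the stricter filter, 6098 with library weights, 2261 with the block, 56 with the minimum change and 2632 without the 4 libraries.

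The depth behind these values is unknown, so a value near 0, such as VCAM1 in vehicle cells, sets no limit on the transcript. With 3 libraries a group, a miss of the threshold does not show that levels were alike.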
